A study of Mus musculus with 8 samples.

Results

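The 4 libraries described here are those titled wild type (spelled wile-type in the sample titles), out of 8 in the series, and were chosen by title alone. Each holds mRNA of mouse medial prefrontal cortex. The series studies Ino80e, which encodes part of the INO80 chromatin remodeller and lies in a locus linked to schizophrenia. Its model was made by stereotaxic delivery of an adeno-associated virus to this region, and the other 4 libraries, titled Ino80e overexpression, were not compared here. Strain, age, sex and whether the wild-type mice were injected with a control virus were not given in the sources used here. Total RNA was extracted with Trizol, selected with poly(T), and made into strand-specific libraries by dUTP marking. The titles give replicate numbers 1 to 4 but do not state that these are different animals, so the spread given below may be partly technical. No test was made, because the description has 1 group only.

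The medial prefrontal cortex lies on the inner face of the frontal lobe and takes part in working memory, decision making and the control of emotional behaviour. Its glutamatergic projection neurons are arranged in layers whose targets differ, and they are held in check by several classes of GABAergic interneuron. In the mouse the striatum, the septum and the lateral ventricle with its choroid plexus lie close to this region.

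The libraries held 44762378, 48697238, 55379790 and 49294171 counted reads, given here and throughout in the order of replicates 1 to 4. The floor used below, 3 counts, is 0.0542 to 0.0670 CPM, here a library's counts per 1e6 of its total. All other CPM values use library sizes adjusted by TMM, a trimmed mean of expression ratios. No library was a copy of another, since pairs differed with a chi-square of 11.99 to 24.4 per degree of freedom. The common biological coefficient of variation (CV), the spread between libraries beyond counting error, was 12.02% over 16112 genes. Replicate 4 stood apart in genes of the choroid plexus, and replicate 3 in red cell genes. Both sets of values are given below, and the factor between libraries is also given without replicate 4 or replicate 3 for the lists that these libraries set apart most. RNA of the choroid plexus, ependyma and striatum lists moved between the libraries, and its part in the other differences was not tested. The libraries also differed in how levels followed gene composition. Slopes were fitted to log2 CPM less the gene's own mean over the libraries. On GC content they were −0.01, −0.07, 0.07 and 0.01 per 10 percentage points. On the log10 of merged exon length they were −0.06, 0.12, −0.04 and −0.02.

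Ino80e itself, on GRCm38 chr7:126850960-126862377 (−), stood at 22.2, 19.3, 25.4 and 20.8 CPM, with a mean of 21.9 ± 2.61 CPM (SD, n = 4). The 4 values differ by a factor of 1.32, and the gene overlaps Doc2a and Hirip3 on the other strand. How reads from such overlapping genes were divided was not given in the sources used here.

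Transcription was broad. Of 54446 identifiers, 26965 had no count in any wild-type library and 13611 reached 1 CPM in all 4. Of the latter, 12875 were protein-coding and 627 long noncoding. The 868 most abundant genes held 50% of the counts and 5597 held 90%. The 10 most abundant held 6.07% and the 100 most abundant 19.4%. Among 21918 protein-coding identifiers, 4615 had no count.

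Before length is taken into account, the highest levels were those of mitochondrial messages and of long neuronal messages. mt-Co1, a subunit of cytochrome c oxidase, led with 20502, 24089.9, 21277 and 17390.2 CPM. Camk2a, the calcium-dependent kinase of excitatory synapses, was the highest nuclear gene with 4678, 5108, 5511 and 4384 CPM. Kif5a, a motor for axonal transport, followed with 4507, 4448, 5180.2 and 4371 CPM. Camk2a lay above Kif5a in each library, although their ranges overlapped. Slc1a2, the main astrocyte glutamate transporter, reached 4230.1 ± 367 CPM and Mbp, a structural protein of myelin, 2623 ± 205 CPM. Both are messages of glia, and they stood among the 15 highest by CPM.

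Per length of exon the order changed. Levels below in TPM divide counts by merged exon length before scaling to a common total, and they are the scale used to compare genes. Nrgn, which binds calmodulin in dendritic spines, was the highest nuclear gene with 4149, 4132, 4257 and 3914 TPM. Calm2 and Calm3, which encode calmodulin, were among the highest as well, with 3879.9 ± 115 and 3540.3 ± 138 TPM (SD, n = 4). Camk2a stood at 2740.4 ± 228 TPM. These 4 genes of calmodulin signalling were all among the 15 highest nuclear genes per length. In the same group, Eef1a1 and Eef1a2, elongation factors of translation, held 3529 ± 137 and 2259 ± 33.7 TPM. The secreted or lysosomal proteins Cpe, Sparcl1, Apoe and Psap held 3405 ± 149, 3252 ± 198, 2998 ± 210.2 and 2910.3 ± 134 TPM. Glul, the glutamine synthetase of astrocytes, held 2253 ± 162 TPM, and the glycolytic enzyme Aldoa 2114 ± 35.2 TPM. The 100 highest nuclear genes held 15.5% of all TPM.

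By gene class, protein-coding genes outside the named classes took 92.4%, 91.9%, 92.4% and 93.1% of counts. Mitochondrially encoded genes took 4.72%, 5.42%, 4.78% and 4.07%, or 4.75% ± 0.553 (SD, n = 4). Replicate 2 was highest and replicate 4 lowest, and exact binomial 95% intervals of class shares are at most 0.00774 percentage points wide to each side, so the libraries differ by more than counting error. These intervals cover counting error only, because amplified reads are not independent molecules. Long noncoding RNA took 0.956% ± 0.0188 and cytosolic ribosomal protein genes 0.864% ± 0.0427. Nuclear genes of oxidative phosphorylation took 0.695% ± 0.0285 and histone genes 0.0523% ± 0.00365. Mitochondrial and nuclear genes of the respiratory chain did not share an order. The nuclear genes were highest in replicate 4 (0.725%) and lowest in replicate 2 (0.657%), the reverse of the mitochondrial shares. Of 1474 olfactory and vomeronasal receptor identifiers for smells and pheromones, 6 reached a mean of 1 CPM, and the whole class held 0.00196% of counts.

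**Figure D1:**
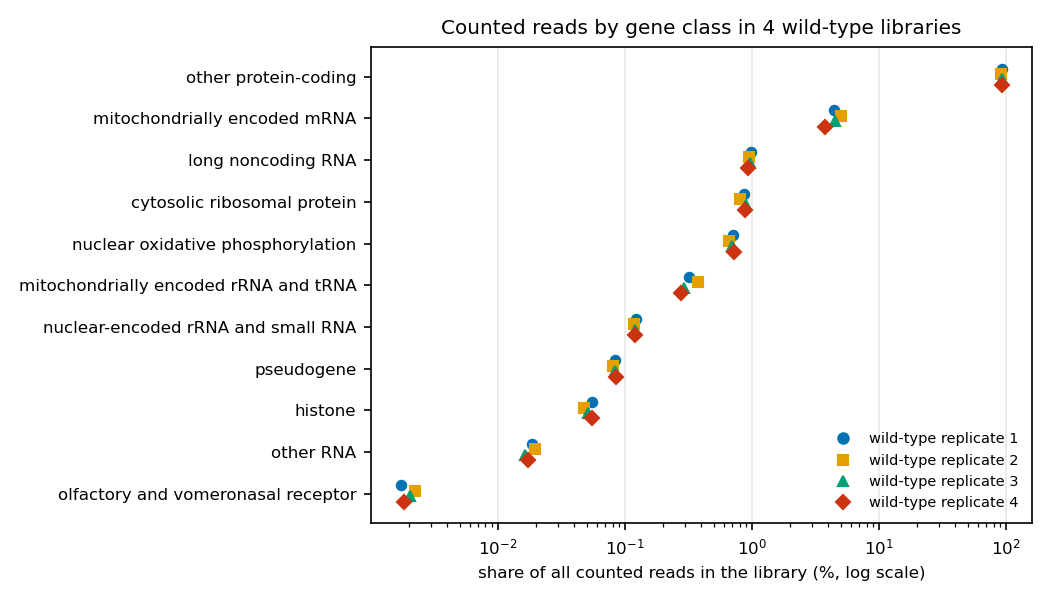
Share of all counted reads (percent, log axis) held by each gene class, with 1 point per wild-type library. The points of most classes lie close together, and the mitochondrial classes spread by a factor of about 1.33 between replicate 2 and replicate 4.

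The mitochondrial messages were counted in very unequal amounts. Mitochondrial DNA is transcribed as long precursors that are cleaved into messages, and nuclear genomes carry inserted copies of it. mt-Co1 held 925687, 1140100, 1171782 and 875813 counts and mt-Cytb, part of complex III, 318325, 403059, 410138 and 305191. By contrast mt-Co2 held 32, 33, 55 and 48 counts, mt-Atp6 15, 24, 37 and 20, and mt-Co3 112, 108, 103 and 91. mt-Co2, mt-Atp6, mt-Co3, mt-Nd3 and mt-Nd4l were all low, and 97.6% to 99.9% of their 100-base windows recur exactly in an annotated transcript of another gene. For mt-Nd4 this share was 60.8% and for mt-Co1 30.8%. It was 0% for mt-Nd1, mt-Nd5, mt-Nd6 and mt-Cytb. mt-Atp8, of 204 bases, had 2, 1, 6 and 3 counts and a share of 0%, but only annotated transcripts were searched. It lies at chrM:7766-7969, after mt-Co2 and partly over mt-Atp6. Their copies are Gm28661 (chr1:24614885-24615565) and Gm10925 (chr1:24613974-24614651). A copy of mt-Atp8 in the bases between those copies would have been missed. How reads with several matching places were treated was not given in the sources used here, and its part in these low counts was not tested. Counts of these genes are therefore uncertain, as is the mitochondrial share.

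The copies lie side by side on chromosome 1 of GRCm38, on the minus strand. The sequences below are shown because a read from within them matches more than 1 place: the opening 90 bases of mt-Co3 (chrM:8607-9390, +) and of mt-Nd3 (chrM:9459-9806, +) stand above those of Gm28437 (chr1:24613189-24613971, −) and Gm28438 (chr1:24612775-24613119, −), 5′ to 3′, from the GENCODE transcripts. Capitals mark the 1 base that differs, T3C, counted from the start of mt-Nd3.
mt-Co3: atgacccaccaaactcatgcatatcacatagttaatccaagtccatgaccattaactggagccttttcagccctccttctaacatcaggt
Gm28437: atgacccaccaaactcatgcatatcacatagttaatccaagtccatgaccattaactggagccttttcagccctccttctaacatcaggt
mt-Nd3: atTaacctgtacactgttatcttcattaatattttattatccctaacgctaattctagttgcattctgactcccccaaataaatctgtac
Gm28438: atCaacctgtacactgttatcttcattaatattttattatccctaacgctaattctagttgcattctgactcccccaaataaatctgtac
Over all 783 bases compared, Gm28437 is identical to mt-Co3, and over 345 bases Gm28438 is 99.7% identical to mt-Nd3. mt-Nd3, with 403, 386, 292 and 266 counts, kept more reads than mt-Co3, and Gm28437 held 34, 36, 34 and 17.

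**Figure D2:**
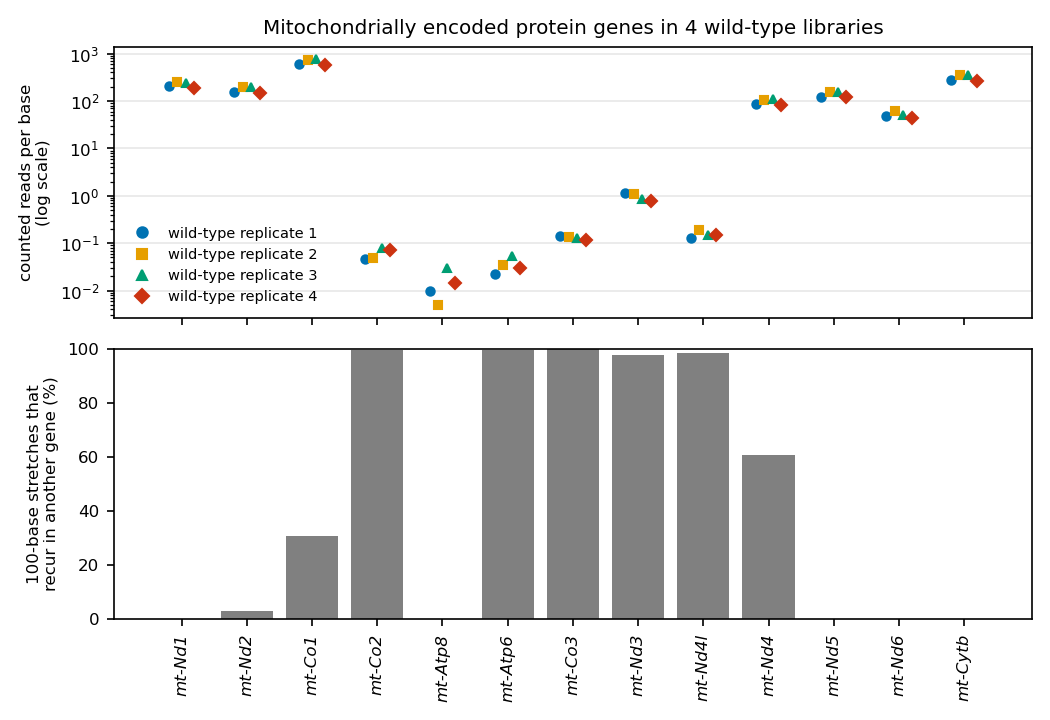
Upper panel, counted reads per base (log axis) of each mitochondrially encoded protein gene, 1 point per wild-type library. Lower panel, percent of the gene's 100-base stretches found in another annotated gene. The 5 genes above 97% in the lower panel all lie far below mt-Co1 in the upper one.

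Among noncoding RNAs, 2900097C17Rik was the highest with 1677 ± 104 CPM (SD, n = 4). Meg3, a maternally expressed imprinted RNA abundant in neurons, followed with 1068, 923, 1223 and 917 CPM, highest in replicate 3. Rian, from the same imprinted domain on chromosome 12, held 247 ± 13.1 CPM and Peg13 427 ± 12.8 CPM. Malat1, a nuclear RNA, held 158 ± 24.2 CPM and Miat 119.9 ± 19.2 CPM. An annotated ribosomal RNA, CT010467.1, held 765 ± 21.9 CPM.

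A very short gene shows how annotation enters such a ranking. Gm23935, annotated as a miRNA gene of 57 bases at chr16:11144125-11144181 (+, GRCm38), held 18609, 17929, 21581 and 19457 counts. The libraries were made from fragments of 300 to 350 bases, longer than the gene. Its sequence is shown, all in lower case because no stretch is singled out, since the same bases occur in Gm24245 and Gm24270 and its GC content is 73.7%.
Gm23935: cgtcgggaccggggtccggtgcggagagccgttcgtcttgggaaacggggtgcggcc
Genes under 200 merged exon bases were left out of TPM, because division by so short a length would put them at the top of the ranking.

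Markers of the main cortical cell classes were present. In bulk tissue, fewer cells of a type and less RNA per cell cannot be told apart, so the summed TPM of a list is a level of RNA and not a count of cells. Excitatory neuron genes summed to 9168, 9305, 9688 and 8746 TPM, led by Nrgn, Camk2a and Slc17a7, the cortical vesicular glutamate transporter at 1524, 1513, 1552 and 1433 TPM. The second vesicular transporter, Slc17a6, typical of thalamus, stood at 10.8, 13.9, 13.9 and 18.02 TPM. GABAergic genes summed to 682, 670.5, 661 and 724 TPM. Gad1 and Gad2, the enzymes that make GABA, held 167 ± 10.9 and 120.0 ± 10.4 TPM. The 2 neuronal lists differed between libraries by factors of 1.11 and 1.09.

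Interneuron subclass genes were headed by neuropeptides. Cck, which pyramidal cells also express, held 1119 ± 49.6 TPM and Sst, the peptide of dendrite-targeting interneurons, 899 ± 51.8. Npy held 329 ± 38.2 TPM, Lamp5 299 ± 16.1, Pvalb, the calcium buffer of fast-spiking cells, 125 ± 9.05 and Vip 32.3 ± 2.26. Of these 6, Npy differed most between libraries, 1.26-fold by CPM. Calb2, or calretinin, was 25.8, 25.7, 28.2 and 56.1 TPM, with replicate 4 above the other 3. Vip, which marks overlapping interneurons, stood at 33.6, 29.03, 32.7 and 34.0 TPM. Calb2 is also used by neurons outside cortex, and the cause of its step was not tested.

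The oligodendrocyte list spread more than the neuronal lists. Its genes, which build myelin, summed to 4807, 3954, 4603 and 5135 TPM. Replicate 4 was highest for 11 of the 14 members and replicate 2 lowest for 12, where 24.5% of all genes of at least 1 CPM were highest in replicate 4 and 29.1% lowest in replicate 2. Mbp was 1289, 1117, 1335 and 1425 TPM, and Mag, an adhesion protein of myelin, 217, 181, 215 and 231 TPM. Mog, on the outer surface of myelin, was 147, 119, 141 and 162 TPM. Without replicate 2 the factor between libraries falls from 1.299 to 1.12. Precursor genes, among them Olig1 at 226, 182, 232 and 220.2 TPM, summed to 403, 343, 428 and 409 TPM and were also lowest in replicate 2, but highest in replicate 3.

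Astrocyte genes summed to 3658, 3606, 3989 and 3657 TPM, with replicate 3 alone above the rest and highest for 10 of 14 members, against 26% of all genes. Gfap, a filament protein of astrocytes, was instead highest in replicate 4, at 122, 111, 139 and 167 TPM. Gjb6, a gap junction protein, was highest in replicate 3, at 58.1, 64.7, 83.96 and 72.6 TPM. Microglial genes, among them Ctss and C1qa, summed to 1188, 1074, 1163 and 1104 TPM, and none of the 19 was highest in replicate 4, against 24.5% of all genes.

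Most vessel genes were highest in replicate 3, against 26% of all genes of at least 1 CPM. The endothelial list summed to 613, 582, 696 and 624 TPM, with 12 of 15 members highest there. Cldn5, a tight junction protein of the blood-brain barrier, was 81.8, 79.3, 114 and 90.8 TPM. The mural list summed to 482, 507, 584 and 501 TPM, with 8 of 11 members of at least 1 CPM highest there, among them the smooth muscle genes Acta2 (47.2, 54.7, 70.3 and 49.01 TPM) and Myh11 (14.2, 18.9, 24.4 and 15.2 TPM). Leptomeningeal genes summed to 1370.4, 1438, 1710.0 and 1466 TPM, most of it Ptgds, a prostaglandin synthase that oligodendrocytes and choroid plexus also make, at 1248, 1313, 1564 and 1322 TPM. Collagen Col1a1 was 7.01, 7.42, 11.4 and 8.21 TPM, again highest in replicate 3. Border macrophages left a low signal, with 3 of 7 members at 1 CPM or more. Their mannose receptor Mrc1 was 1.86, 3.97, 3.696 and 2.69 TPM, lowest in replicate 1.

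**Figure D3:**
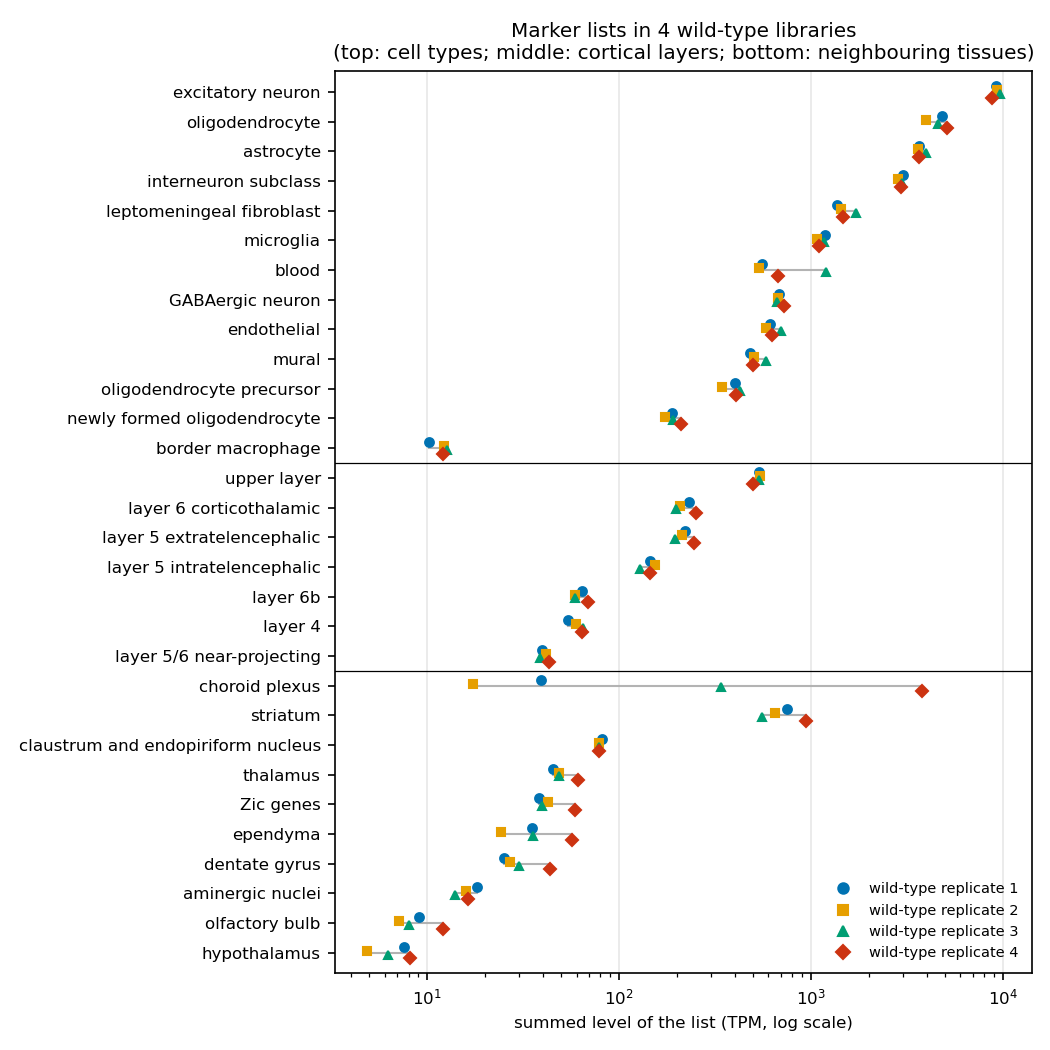
Summed level (TPM, log axis) of each marker list, 1 point per wild-type library, for cell types, cortical layers and neighbouring tissues. Neuronal and glial lists have nearly coincident points, whereas the choroid plexus list runs from 17.4 to 3766 TPM.

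Red cell genes set replicate 3 apart most clearly. The blood list summed to 558, 539, 1193 and 675 TPM. Its 4 members of at least 1 CPM (of 9) were all highest in replicate 3, against 26% of all such genes. The adult beta-globin Hbb-bs was 51.3, 52.7, 117 and 61.6 CPM and the alpha-globin Hba-a1 45.4, 42.4, 91.1 and 50.6 CPM. Hbb-bt was 5.82, 6.82, 13.7 and 7.41 CPM, and Alas2, which begins haem synthesis in red cell precursors, 4.45, 5.13, 8.79 and 6.39 CPM. Replicate 3 lies above the other libraries in each, and without it the factor between libraries drops from 2.21 to 1.253. White cell genes of the list stayed low, with Cd3e of T cells at 4, 0, 4 and 9 counts and S100a8 of neutrophils at 2, 6, 0 and 6. Globin copies share sequence: 56.5% of the 100-base windows of Hba-a1 recur in Hba-a2, which was listed at 5, 11, 29 and 8 counts, so the division between them is uncertain.

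The promoters of Hba-a1 (chr11:32283422-32283721, +) and Hbb-bs (chr7:103827879-103828178, −) are shown because these genes, on different chromosomes, both had replicate 3 highest and replicate 4 next. The sequences are RefSeq, GRCm38.p6, 250 bases before to 50 after the start, 5′ to 3′. Capitals mark matches to the motif GATAA, the motif CACCC or the motif TATAAA on either strand.
Hba-a1: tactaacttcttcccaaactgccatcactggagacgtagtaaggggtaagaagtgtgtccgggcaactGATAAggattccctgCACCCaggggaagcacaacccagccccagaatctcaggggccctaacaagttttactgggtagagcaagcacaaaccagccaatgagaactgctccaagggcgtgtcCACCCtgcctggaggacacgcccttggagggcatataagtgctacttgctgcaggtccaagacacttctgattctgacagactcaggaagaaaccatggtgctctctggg
Hbb-bs: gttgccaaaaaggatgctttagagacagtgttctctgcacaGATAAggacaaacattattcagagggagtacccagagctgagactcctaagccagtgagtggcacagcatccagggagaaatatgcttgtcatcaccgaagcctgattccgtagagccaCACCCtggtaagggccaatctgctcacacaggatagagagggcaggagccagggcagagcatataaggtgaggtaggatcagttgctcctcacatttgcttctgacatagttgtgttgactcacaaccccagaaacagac
Hba-a1 has 3 matches and Hbb-bs 2. GATAA, the core read by GATA factors, occurs in 25.4% of 32851 RefSeq promoter windows, CACCC in 57.5% and TATAAA in 13.6%. A match of such short letters is a description of the window and not a binding site.

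Layer markers showed a smaller and patterned spread. Upper layer genes summed to 534, 543, 538 and 497 TPM. Replicate 4 was lowest for 8 of 11 members by CPM, against 22.4% of all genes of at least 1 CPM. Cux2, a transcription factor of layers 2 to 4, was 56.9, 64.2, 65.3 and 51.9 TPM, and Rasgrf2, a Ras exchange factor, 100.5, 98.7, 107 and 96.04 TPM. Wfs1, a protein of the endoplasmic reticulum, was 139.9, 131, 135 and 122 TPM. All 3 were lowest in replicate 4. Without replicate 4 the 3 sums differ by a factor of 1.02.

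Of the deep layer lists, the layer 6 corticothalamic and layer 5 extratelencephalic lists ran the other way. The layer 6 corticothalamic list summed to 231, 207, 198 and 252 TPM and the layer 5 extratelencephalic list, the neurons that project below the cortex, to 222, 212, 195 and 245 TPM. In both sums, replicate 4 was highest and replicate 3 lowest. By CPM, replicate 4 was highest for 4 of 7 layer 6 members, against 24.5% of all genes of at least 1 CPM. The other 3, Syt6, Ntsr1 and Grp, were highest in replicate 1. In the layer 5 list replicate 4 was highest for 4 of the 6 members of at least 1 CPM (of 7), and replicate 2 for 2. Fezf2, which specifies subcortical projection neurons, was 57.8, 55.8, 56.6 and 69.7 TPM. Bcl11b, its partner in these cells and a gene of striatal neurons too, was 42.8, 45.4, 35.4 and 46.1 TPM. Fezf2 was nearly level in the other 3 libraries, while Bcl11b was lowest in replicate 3. Foxp2, a transcription factor of layer 6 that striatal neurons also express, was 3.55, 3.72, 2.98 and 5.13 TPM, and Tle4 44.8, 43.9, 41.4 and 49.8 TPM. Sulf1, a sulfatase, was 9.23, 8.68, 7.96 and 16.02 TPM, the member with the clearest step in replicate 4. Striatal genes had the same highest and lowest library (given below), and their part in the deep layer lists was not tested.

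The remaining layer lists spread less than these deep layer lists. Layer 5 intratelencephalic genes, led by Parm1 and Etv1, summed to 145, 154, 129 and 145 TPM, with replicate 3 lowest for 3 of 4, against 25.8% of all genes of at least 1 CPM. Layer 6b genes, led by Cplx3 and Ccn2, summed to 63.9, 58.6, 59.3 and 69.1 TPM, and near-projecting genes to 39.5, 41.7, 38.5 and 43.02 TPM. Layer 4 genes summed to 54.1, 59.9, 65.2 and 63.8 TPM. Rorb, the nuclear receptor that defines layer 4 in sensory cortex, was 12.8, 15.3, 14.2 and 11.7 TPM. Scnn1a, a sodium channel subunit, was 2.64, 2.98, 3.25 and 5.56 TPM, with replicate 4 above the rest. The medial prefrontal cortex of the mouse is known for having little or no granular layer 4.

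The choroid plexus list showed the largest difference between libraries of any list. The choroid plexus makes cerebrospinal fluid inside the ventricles and is not part of the cortex. Its 11 genes summed to 39.1, 17.4, 340.3 and 3766 TPM. All 11 were highest in replicate 4, against 24.5% of all genes of at least 1 CPM. Ttr, the thyroid hormone and retinol carrier that defines the tissue, was 7.97, 2.39, 90.4 and 984 CPM. Kl, or klotho, was 3.37, 2.54, 8.23 and 68.03 CPM, Clic6, a chloride channel protein, 2.702, 2.07, 4.98 and 42.9 CPM, and Prlr, the prolactin receptor, 0.731, 0.866, 1.69 and 18.5 CPM. Slc4a5, a bicarbonate transporter, held 10, 1, 83 and 790 counts, and the homeobox gene Otx2, which overlaps an antisense gene, 14, 4, 34 and 245. Replicate 3 was next after replicate 4 for Ttr, Kl, Clic6, Prlr, Slc4a5 and Otx2. Without replicate 4 the list still differs 19.5-fold, between replicates 3 and 2. The sums of replicates 3 and 4 are mostly Ttr, at 28.1, 8.14, 314.9 and 3571 TPM, so such factors are largely those of 1 gene. By the median of members the factor over the 4 libraries was 19.1. Kcnj13, at 1.53, 2.62, 2.24 and 11.5 TPM, was higher in replicate 2 than in replicate 3.

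Among the 20 most variable genes, some outside the list but also known from choroid plexus had the same highest library. Tmem72, a membrane protein, held 16, 2, 98 and 1023 counts. Enpp2, or autotaxin, was 278, 271, 335 and 914 CPM, Ace, the angiotensin-converting enzyme, 18.8, 18.0, 22.3 and 53.1 CPM, and Car12, a carbonic anhydrase, 7.09, 6.85, 8.84 and 29.01 CPM. For Enpp2, Ace and Car12 the 3 lower libraries lie close together, unlike those of Ttr. The genes Htr2c, Trpm3 and Igfbp2 are not among these 20 and were named after their values were seen. Htr2c, a serotonin receptor of choroid plexus and of neurons, was 21.97, 20.6, 22.4 and 39.97 CPM. Trpm3, a cation channel, was 32.7, 37.8, 43.6 and 75.2 CPM and Igfbp2 28.2, 29.6, 37.2 and 52.2 CPM, both with a less steep step. Of the 11 list genes, 7 had a RefSeq promoter window that was searched, and 1 of these held TAATCC, the core read by Otx factors. TAATCC occurs in 8.14% of the 27025 genes with a window. Ttr was not among the 7. Windows on 1 chromosome were left out for the list genes but not for the 8.14%.

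Ependyma, the ciliated lining of the ventricles, moved in the same direction by less. The list summed to 35.01, 24.3, 35.5 and 56.6 TPM. All 5 members of at least 1 CPM (of 6) were highest in replicate 4, against 24.5% of all such genes. Foxj1, the master factor of motile cilia, was 11.1, 6.09, 11.4 and 18.4 TPM. Dynlrb2, a dynein light chain, was 5.33, 5.84, 9.31 and 12.4 TPM and Ccdc153 7.96, 3.78, 3.39 and 11.5 TPM. By CPM, Foxj1 had the library order of Ttr and Ccdc153 that of Drd2. The factor for the list falls from 2.33 to 1.46 without replicate 4.

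Striatal genes ordered the libraries in another way again. The striatum, below the cortex, consists mainly of GABAergic spiny projection neurons that express dopamine receptors. Its list summed to 752, 647, 558 and 937 TPM. Replicate 4 was highest for 14 of the 16 members of at least 1 CPM (of 18) and replicate 3 lowest for all 16, against 24.5% and 25.8% of all genes of at least 1 CPM. Of the 16, 10 had a biological CV of at least 25%, where 6.26% of all genes of at least 1 CPM did.

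The members of the indirect pathway varied most. Drd2, the dopamine D2 receptor, was 7.33, 3.89, 1.53 and 11.7 CPM and Adora2a, an adenosine receptor, 11.1, 8.18, 4.43 and 18.2 CPM. Gpr6, a receptor of the same neurons, was 3.26, 2.58, 0.799 and 4.15 CPM. For these 3 genes the libraries are well separated, with replicate 1 second. Penk, the enkephalin precursor, which cortical interneurons also make, was 47.8, 39.7, 34.7 and 65.2 CPM. Of genes used in both pathways, Ppp1r1b, the dopamine-regulated phosphatase inhibitor, was 94.2, 80.9, 74.99 and 124 CPM, highest in replicate 4 and lowest in replicate 3. Rgs9 was 22.6, 17.4, 14.04 and 28.6 CPM and Pde10a, a phosphodiesterase, 98.05, 81.4, 60.9 and 113 CPM. In the direct pathway Drd1 was 14.5, 11.7, 10.1 and 17.4 CPM and Tac1, the substance P precursor, 12.8, 9.04, 7.14 and 11.9 CPM. Cortex expresses both too, and their range was narrower than that of Drd2. Meis2 at 158, 157, 149.5 and 154 CPM and Adcy5 at 239, 222, 207 and 255 CPM differed least.

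Lrrc10b and Sp9, outside the list and among the 20 most variable genes, had the same highest and lowest library. Lrrc10b, a leucine-rich repeat gene, was 9.302, 6.57, 4.01 and 12.9 CPM and Sp9, a transcription factor of spiny neurons and of some interneurons, 5.51, 4.86, 2.89 and 8.99 CPM. Without replicate 4 the striatal sum still differs 1.35-fold.

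**Figure D4:**
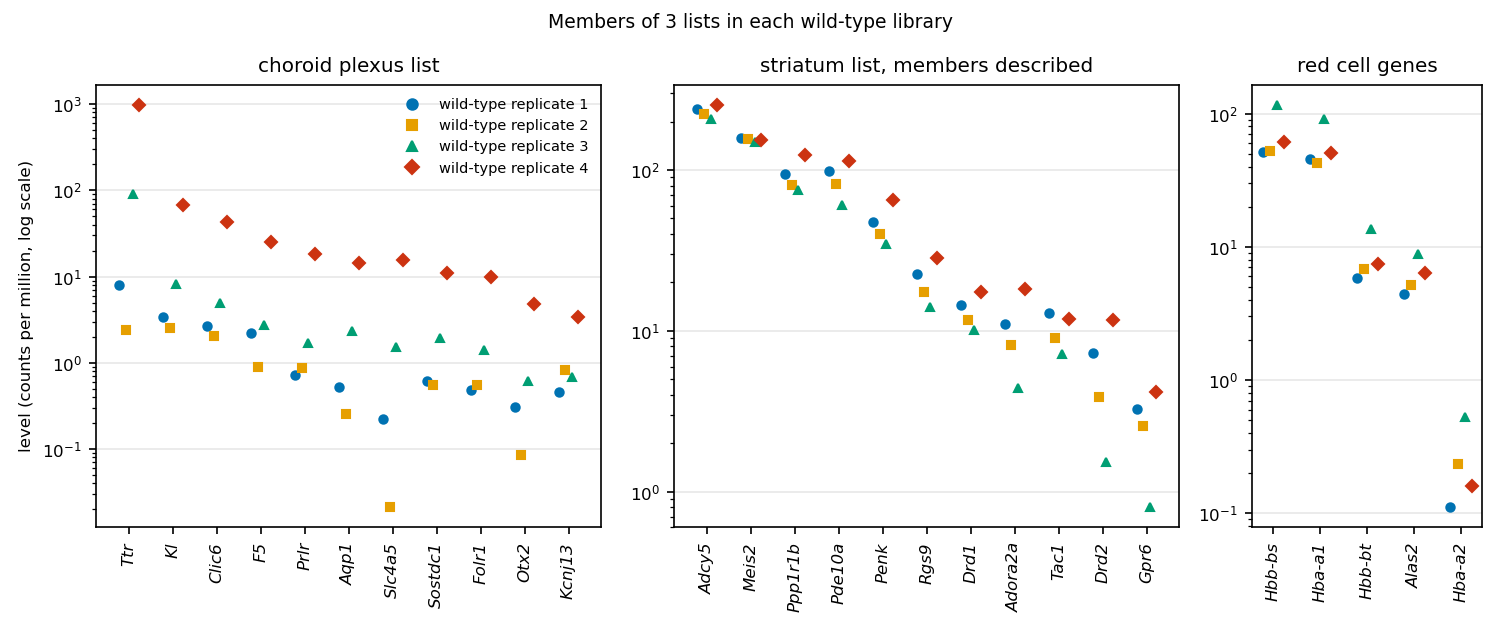
Level of each member (CPM, log axis) of the choroid plexus list, of the striatum list members described here and of the red cell genes, 1 point per wild-type library. Replicate 4 is at the top throughout the choroid plexus panel and replicate 3 at the bottom throughout the striatum panel, while replicate 3 is at the top for each red cell gene.

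Other neighbours gave weak or mixed signals. Zic1, a gene of septum, thalamus, olfactory bulb and meninges that overlaps Zic4, was 13.4, 14.8, 12.3 and 26.3 TPM, again with replicate 4 apart, and the 4 Zic genes summed to 38.4, 42.4, 39.8 and 59.2 TPM. Without replicate 4 the Zic sums differ 1.103-fold in place of 1.54-fold. Of the thalamus list, Prkcd, a protein kinase C, was 8.82, 7.38, 6.07 and 13.5 TPM, while the thalamic factor Gbx2 was at 2, 0, 0 and 0 counts. The list summed to 45.0, 48.5, 48.6 and 61.2 TPM, a 1.36-fold difference that is 1.08-fold without replicate 4. Of its 7 members of at least 1 CPM (of 8), 4 were highest in replicate 4, against 24.5% of all genes of at least 1 CPM.

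Hippocampal and hypothalamic lists were low. The dentate gyrus list summed to 25.1, 27.1, 30.2 and 43.7 TPM, with C1ql2 at 2.501, 2.56, 4.27 and 11.9 TPM and Prox1, also an interneuron gene, at 10.8, 9.04, 10.7 and 13.3. Dsp, or desmoplakin, held 26, 8, 40 and 295 counts, an order that is also that of Ttr. The factor for the list falls from 1.74 to 1.21 without replicate 4. No hypothalamic gene of 10 reached 1 CPM. Oxytocin (Oxt) held 4, 2, 0 and 14 counts and vasopressin (Avp) 4, 0, 1 and 1, and Hcrt, the orexin precursor, had no count in any library. A level under the floor of 3 counts could not be detected. The summed claustrum list differed 1.04-fold between libraries, with Synpr at 30.1 ± 2.22 TPM and Nr4a2 at 7.96, 7.09, 7.76 and 10.4 TPM. Single members differed by more than the sum, Nr4a2 1.37-fold by CPM.

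Genes of aminergic cell bodies were low. These neurons lie outside the cortex and send axons into it. Th, which makes dopa, held 5.21, 3.83, 3.46 and 5.09 TPM, and Slc6a3, the dopamine transporter, 4, 5, 22 and 0 counts. Slc6a4, the serotonin transporter, held 4, 0, 0 and 4 counts and Tph2, which begins serotonin synthesis, 45, 50, 64 and 36.

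The receptors for those transmitters were present at unequal levels, given as mean TPM ± SD over the 4 libraries. Among AMPA subunits, which carry fast excitation, the order was Gria1 316 ± 26.9, Gria2 131 ± 6.96, Gria3 116 ± 6.48 and Gria4 71.1 ± 2.81. Gria2 and Gria3 overlapped in range and the other neighbours did not. Among NMDA subunits Grin1, the obligatory one, held 139.6 ± 3.24, Grin2b 94.5 ± 9.35, Grin2a 56.3 ± 5.31 and Grin2c, which astrocytes also express, 44.5 ± 3.95, with no overlap between neighbours. Grik5 led the kainate subunits with 211 ± 12.7. Of metabotropic receptors Grm3 held 149 ± 9.41, above Grm5 at 84.8 ± 8.71 and Grm2 at 71.1 ± 4.54, and the latter 2 overlapped.

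Most GABA-A subunits shared a highest library. Gabra3 held 216 ± 17.4 TPM and Gabrb2 132 ± 10.8 TPM, with no overlap in range. Of the 12 subunit genes of at least 1 CPM (of 16), 11 were highest in replicate 2, where 27.3% of all such genes were. So were 3 of 4 AMPA, 4 of 6 NMDA and 5 of 7 metabotropic glutamate receptor genes, and 12 of 16 heat shock genes. In the kainate, dopamine, serotonin, adrenergic and acetylcholine receptor families it was 1 of 5, 0 of 3, 3 of 9, 1 of 8 and 3 of 10. Gabra3 was 218, 224, 192 and 183 CPM and Gabra2 37.2, 51.9, 38.6 and 39.04 CPM. The summed GABA-A list differed 1.17-fold between libraries. Relative to the other libraries, replicate 2 also had the steepest rise of level with merged exon length given above. The part of that rise in the order was not tested. Gabrp had no count in any library.

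Dopamine receptors were the receptor family with the largest spread, and their sum had the striatal order. The sum was 30.7, 22.6, 17.2 and 45.4 TPM, with Drd1 at 16.7, 13.02, 11.5 and 20.6 TPM, Drd2 at 12.04, 6.17, 2.47 and 19.8 and Drd5 at 1.12, 2.90, 1.55 and 3.71. The order of Drd1 and Drd2 was the same in the 4 libraries, but their ranges overlapped. Without replicate 4 the sum differs 1.78-fold, and striatal genes outside the receptors moved with it, so the level that belongs to cortex cannot be told apart from them. For serotonin, Htr2a, a receptor of layer 5 pyramidal cells, held 33.2 ± 4.298 TPM and Htr1a 20.1 ± 3.78 TPM. Adra1d led the adrenergic receptors with 90.6 ± 6.02 TPM. Chrm1 led the acetylcholine receptors with 149 ± 7.84 TPM, above Chrm3 at 71.7 ± 4.97 and Chrm4 at 71.7 ± 6.54. Nicotinic Chrna4 held 45.5 ± 2.25 TPM.

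Lists of acute state showed moderate spread. Immediate early genes, induced by neuronal activity within minutes, summed to 1597, 1647, 1776 and 1816 TPM, and replicate 1 was lowest for 16 of the 29 members of at least 1 CPM (of 30), against 22.7% of all genes. Fos was 38.3, 46.02, 56.8 and 54.3 TPM, Arc 189, 191, 201 and 208 TPM, Egr1 274, 292, 340.4 and 312 TPM and Npas4 34.9, 39.4, 40.5 and 46.7 TPM. Fos was lowest in replicate 1 and higher in replicates 3 and 4 than in 1 and 2. Homer1, counted over all its transcripts, did not share that order, at 51.5, 55.2, 44.5 and 52.5 TPM.

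Glucocorticoid-responsive genes summed to 804, 799, 866 and 921 TPM, with Sgk1 at 36.8, 43.2, 41.8 and 51.99 TPM and Fkbp5, a cochaperone of the receptor, at 12.3, 10.9, 10.98 and 13.8 TPM. Circadian genes summed to 1335, 1283, 1434 and 1315 TPM, and 10 of 18 were highest in replicate 3, against 26% of all genes. Nr1d1 was 243, 239.8, 296 and 247 TPM, Dbp 113, 91.8, 110.4 and 99.6 TPM and Per1 58.8, 60.3, 77.9 and 67.05 TPM. Time of dissection was not given in the sources used here. Heat shock genes summed to 6319, 6718, 6259 and 6751 TPM, with Hspa8 at 1475, 1679, 1552 and 1661 TPM, and interferon-stimulated genes to 498, 524, 550.3 and 570.4 TPM, with Ifit3 at 20.2, 15.7, 23.8 and 23.4 TPM. None of these 5 lists reached a factor of 1.5.

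Gene by gene, most of the transcriptome differed little between libraries. Among 11287 genes with a mean of at least 5 CPM, the median ratio of the highest to the lowest library was 1.17 and the median biological CV 6.37%. The 99th percentile was 23.5%, and 480 genes had no spread beyond counting noise. A biological CV of at least 25% was reached by 83 genes (0.735%), and 7 genes reached 100%. With genes down to a mean of 1 CPM, 893 of 14269 reached 25%.

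**Figure D5:**
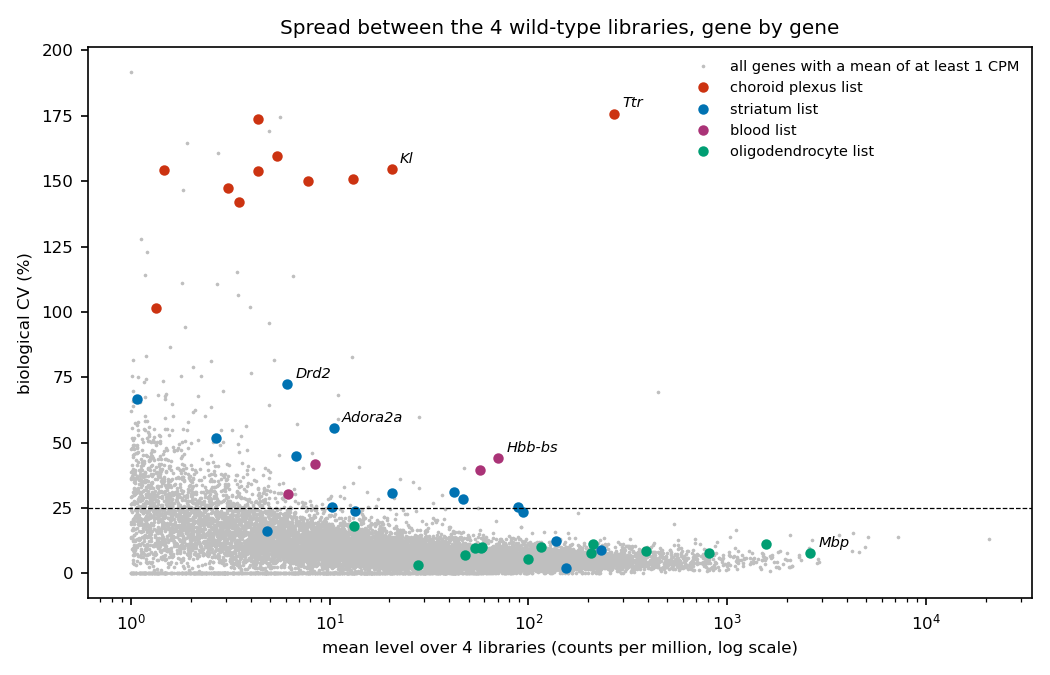
Biological CV (percent) against mean level (CPM, log axis) of every gene with a mean of at least 1 CPM, with members of selected lists coloured and the 25% threshold dashed. The highest coloured points are choroid plexus genes, up to Ttr at 176%, and most genes lie below 25%.

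Most of the variable genes were highest in replicate 4. It was the highest library for 53 of the 83, against 12, 6 and 12 for replicates 1 to 3. Among all genes of at least 1 CPM, 24.5% were highest in replicate 4. The library order 4, 3, 1, 2, which is that of Ttr, was found in 19 of the 83 and in 4.99% of all 11287. The order 4, 1, 2, 3, that of Drd2, was found in 13 and in 3.49% of all. Without replicate 4, 47 of the 83 kept a biological CV of at least 25%. The number of genes that reached 25% was then 86. Leaving out replicate 1, 2 or 3 in its place gave 128, 125 and 133. Genes at least 1.5 times the mean of the other 3 libraries numbered 10, 7, 13 and 52 (0.0886%, 0.062%, 0.115% and 0.461% of those tested). At a mean of at least 1 CPM, 337 genes (2.36%) stood this far above in replicate 4. Genes as far below numbered 33, 49, 40 and 11 (0.292%, 0.434%, 0.354% and 0.0975%).

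The 7 genes above 100% were Ttr, Tmem72, Prlr, Kl, Clic6, F5 and Abca4, with 176%, 175%, 159.8%, 155%, 151%, 150.1% and 114%. All 7 were highest in replicate 4. F5, a coagulation factor of the choroid plexus list, was 2.21, 0.887, 2.76 and 25.3 CPM, and Abca4, a lipid transporter, 2.104, 2.79, 3.65 and 17.7 CPM. Also among the 20 most variable were Col8a1, Col8a2 and Col9a3, collagen genes, and Slc2a12 and Slc29a4, solute transporters. Col8a1 was 2.79, 3.42, 3.105 and 11.7 CPM and Slc29a4 3.99, 4.501, 6.28 and 12.5 CPM. All 5 were highest in replicate 4.

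A smaller set was low in replicate 4. Ndn, an imprinted gene of neurons, was 202, 199, 192 and 116 CPM, with 3 libraries close together and replicate 4 below them. Hpgds, a prostaglandin D synthase of microglia and macrophages, was 8.86, 9.403, 7.03 and 4.84 CPM. Runx2, a transcription factor, was 9.15, 7.73, 8.53 and 5.42 CPM and Lmo1 5.18, 6.68, 5.102 and 3.51 CPM. Replicate 4 was lowest for each of these. Kcnq1ot1, an imprinted antisense RNA, was 7.88, 8.37, 7.35 and 5.103 CPM. Gm43305, an unnamed transcript, was 19.2, 7.44, 13.1 and 4.45 CPM and had the largest CV among genes lowest there. Among the cell type and layer lists, the excitatory neuron and upper layer sums were lowest in replicate 4.

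Principal component analysis of log2 CPM set replicate 4 against replicate 2. The leading component held 45.9% of the variance among 4 libraries and placed them at −3.54, −11.6, 2.27 and 12.8, with Ttr, Tmem72 and Kl at the positive end and Gm43305 and Ndn at the negative end. The next 2 components held 29.2% and 24.9%.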

How the data were processed

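The authors deposited a table of raw read counts per gene for 54446 Ensembl identifiers, and the 4 wild-type columns were matched to samples through the column names given in the labels. Per the submitters' processing notes, the tools were Trimmomatic 0.39, STAR 2.7.10 and featureCounts 2.0.3, with builds mm10 and GRCm38. Their settings, the annotation release, the strand setting of the counting and the handling of reads with several matches were not given in the sources used here, so values of overlapping genes and of near-identical copies are uncertain. Symbols, biotypes and lengths came from the GENCODE annotation of GRCm38, with 54409 identifiers matched and 37 without a symbol, which held at most 0.014% of counts.

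Counts were scaled by TMM in edgeR 4.0.16 (R 4.3.3) to CPM. TPM was computed over genes of at least 200 merged exon bases. Biological CV is the square root of the squared CV of CPM less its Poisson part. A gene was called variable at 25%, and a list at a ratio of 1.5 between its highest and lowest library. The common biological CV came from estimateDisp after filterByExpr, with an intercept only. The principal components used log2(CPM + 0.5) of genes of at least 5 CPM. The scripts were tested on simulated data. Intervals are exact binomial at 95%, and the floor is 3 counts.

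The members and gene lists were chosen with earlier results of these data known. Genes were named by rule: Ino80e, the 15 highest by CPM and by nuclear TPM, the mitochondrial genes, the 20 largest and 10 smallest CVs, up to 5 of the highest and 3 of the most variable members of each list with its defining members, leading loadings, and up to 10 genes by ratio for a library that stood apart. Other list members, noncoding RNAs, reference genes, Trpm3, Htr2c and Igfbp2 were named after their values were seen. Some genes that the rule names are not reported here. Of the lists, olfactory bulb, newly formed oligodendrocyte, aminergic and sex marker values are partly in the closing section. Alternatives were other scalings and level measures, other thresholds, a GC correction and leaving out each library. Keeping genes of all lengths in TPM was added after seeing the data.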

Additional observations from a re-analysis of the deposited data

Results flagged for a closer look

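The values here are those in which 1 library lies far from the other 3, with a gap to its nearest neighbour above Dixon's 95% critical value for the share of the whole range. Chance alone gives this in about 1 in 20 groups. Of 198 genes named, 32 showed it, and of 57 list and class values 3 did. Many of these genes were named because they vary, so the share is not one for genes at large.

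In replicate 4, 20 genes and 1 list stood above the rest. The choroid plexus list reached 3766 TPM there. Of its members Ttr reached 984 CPM, Kl 68.0, Clic6 42.9, F5 25.3, Prlr 18.5, Slc4a5 15.7 and Otx2 4.86 CPM. Of other genes named for their spread, Enpp2 reached 914 CPM, Ace 53.1, Car12 29.0, Tmem72 20.3, Abca4 17.7 and Col8a1 11.7 CPM. Htr2c reached 39.97 CPM and Dsp 5.86 CPM. Among neuronal genes Fezf2 reached 49.3 CPM, Sulf1 42.1, Calb2 22.7 and Zic4 6.08 CPM. Ttpal reached 81.01 CPM, a gap that is large only against the very small range of the other 3 libraries. Ndn was lower in replicate 4 than in the rest, at 116 CPM.

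In replicate 3 the astrocyte list reached 3989 TPM, Hbb-bs 117 CPM, Hba-a1 91.1, Nr1d1, a clock repressor, 221 and Kif5a 5180.2 CPM. In replicate 2, Gabra2 reached 51.9 CPM, Grin2a 284, Zfp128 11.9 and mt-Nd4l 1.20 CPM, and Vip was lower than in the rest at 24.4 CPM. In replicate 1, Nup35 reached 8.39 CPM and the acetylcholine receptor list was lowest at 387 TPM. Gbx2 at 0.0443 CPM in replicate 1 is 2 counts, under the floor of 3, against 0 elsewhere.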

How the results depend on the processing

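Of 125 alternatives over the summary values, 97 stayed within the spread between libraries or within 1.5 times the count, and 28 moved beyond it. Some of the 97 were bound to stay. Leaving out a library cannot move the mean share of a gene class by as much as the spread. It changes the factor of a list only where that library is the highest or the lowest. The 97 are therefore not a measure of how firm the values are. The spread of a factor between libraries was taken on the log2 scale and was wide for choroid plexus, whose factor was 109 by CPM and 96.2 without replicate 2, against 216. With genes of all lengths the 100 highest nuclear genes held 17.7% of TPM. As shares of TPM in place of counts, mitochondrial genes took 15.02%, ribosomal protein genes 2.05%, oxidative phosphorylation genes 1.49% and long noncoding RNA 1.19%. Over nuclear genes only, the latter 3 took 0.907%, 0.7296% and 1.004%. By the median of members, the factor between libraries was 19.1 for choroid plexus, 2.28 for striatum and 1.24 for the upper layers, and the last was 1.15 by CPM and 1.16 by TMM-scaled TPM. The number of variable genes, 893, became 4638 at 0.1 CPM, 83 at 5 CPM, 35 at 10 CPM and 2162 by a ratio of 1.5. The 83 became 16 by edgeR's tagwise dispersion and 448 by the ratio. Of 36 lists 8 reached a factor of 1.5 between libraries, 13 reached the lower threshold tried and 3 reached 2.

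Leaving out each library in turn gave a factor of 1.253 to 2.21 for blood (lowest without replicate 3), 1.12 to 1.30 for oligodendrocytes (without replicate 2) and 19.5 to 216 for choroid plexus (without replicate 4). It gave 1.35 to 1.68 for striatum, 1.17 to 1.27 for layer 6 and 1.02 to 1.09 for the upper layers, each lowest without replicate 4. The number of variable genes ran from 818 to 978, and of those at 5 CPM from 86 to 133. Lists past 1.5 ran from 3 (blood, hypothalamus and choroid plexus, without replicate 4) to 7. The cause was not tested. No paired analysis was possible because there was 1 group and no comparison. Depth limits statements on genes near 3 counts.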

Other observations

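Genes often used as references for quantitative PCR, named after their values were seen, differed in how steady they were. Actb, cytoplasmic actin, had a CV of CPM of 1.48% over the 4 libraries, Sdha of complex II 1.71%, Gapdh 2.09% and Ppia 2.62%. Rplp0, a ribosomal protein, had 6.05%, Tbp 6.51% and B2m 8.44%. Gusb, a lysosomal enzyme, was 14.1, 9.93, 14.3 and 15.5 CPM, a CV of 18.1%, with replicate 2 below the rest. The steadiest gene of at least 50 CPM was Fto, an RNA demethylase, at 200.1, 199, 200.1 and 200.5 CPM, followed by Ttpal, Dbnl, Mtor and Casc3. Ttpal was 80.6, 80.6, 80.6 and 81.01 CPM and Mtor, the growth kinase, 159, 159, 160.0 and 159 CPM. Being the smallest of 4244, these CVs are the end of a range and not a forecast for other libraries.

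Transcripts from the Y chromosome were counted in all 4 libraries. Ddx3y, an RNA helicase, was 43.3, 49.8, 40.8 and 45.3 TPM and Eif2s3y 17.05, 20.1, 18.7 and 17.3 TPM, while Xist, the RNA of the silenced X chromosome, held 2, 12, 1 and 4 counts.

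Replicate 1 was above the other libraries for a few genes that no list holds. Ndufb9, a subunit of complex I at chr15:58933756-58939488, was 24.8, 13.6, 15.5 and 16.1 CPM. Its neighbour Tatdn1 at chr15:58890155-58933738, on the other strand, was 7.86, 5.599, 4.85 and 5.202 CPM, and Nup35, a nuclear pore protein, 8.39, 4.796, 4.72 and 4.94 CPM. In replicate 2, Zfp128, a zinc finger gene, was 7.33, 11.9, 7.41 and 7.47 CPM. Newly formed oligodendrocyte genes, led by Bcas1 at 137, 125, 136 and 153 TPM, summed to 188, 174, 191 and 209 TPM, highest in replicate 4 and lowest in replicate 2 as for the mature list. Olfactory bulb genes summed to 9.05, 7.16, 8.08 and 12.05 TPM and aminergic genes to 18.2, 15.9, 13.9 and 16.4 TPM.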
